A study of Mus musculus with 12 samples.

Results

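The comparison is of NIH3T3 cells, an established mouse embryonic fibroblast line, kept for 18 h in 50 nM rapamycin against cells kept for 18 h in DMSO, the solvent. It comprises 8 of the 12 arrays of the series, 4 for each treatment, taken by their labels. The other 4 arrays are of cells kept for 18 h in PP242 at 2 uM, the dose of the sample labels (the treatment text writes mM), and enter the fits to help estimate the spread and are set beside rapamycin at the end. All cells grew in DMEM with 10% bovine calf serum, and the labels name no genetic change. The labels call the samples of a treatment independent experiments, and each array carries RNA amplified as a whole transcriptome and labelled with Cy3.

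Rapamycin binds the immunophilin FKBP12, and the complex blocks mTOR complex 1, a kinase that couples growth factors and amino acids to protein synthesis. Downstream of this kinase lie ribosome production, translation initiation, and transcription programmes run by ATF4 (amino acid and one-carbon synthesis), HIF-1 (glycolysis) and SREBP (lipid synthesis), while autophagy and lysosome genes lie under its restraint. PP242 is an inhibitor of the kinase's active site and also reaches mTOR complex 2. The comparison addresses what rapamycin does to transcript levels in growing fibroblasts.

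Levels are given as log2 of the background-corrected signal minus the 75th percentile of the same array, so that 0 is the brightness of the 75th percentile probe, and differences are rapamycin minus DMSO on this log2 scale. On 6 of the 8 arrays the 75th percentile was 261 to 347 times the 25th. The ratio was 51.1 on DMSO 2 and 7.12 on rapamycin 3, where 78.0% and 97.9% of probes counted as well above background, against 55.8% to 60.3% on the other 6 arrays. Dim probes were raised on these 2 arrays, and results are given with and without them. Of 14 fibroblast markers, 13 or 14 were well above background on each of the 6 arrays. Pecam1, Cdh5, Kdr and Tek, which mark endothelium, were not above background on any of the 6. Of 5 epithelial markers, Epcam, Cdh1 and Krt18 were not either, but 0 to 2 of the 5 were on DMSO arrays and 1 to 2 on rapamycin arrays. Other lineages were also detected in part: per array, 2 to 3 of 4 leukocyte markers and 1 to 3 of 5 muscle markers. The same held for 1 to 2 of 3 neural markers and 1 to 2 of 5 adipocyte markers.

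The cultures numbered 4 stood apart from the others in both groups. Ctla2a, a cysteine protease inhibitor gene, lay at 4.27, 4.60, 4.35 and -4.03 in DMSO 1 to 4 and at 5.52, 5.54, 3.16 and -3.08 in rapamycin 1 to 4. Postn, a matrix protein of fibroblasts, lay at -0.03, 0.07, 0.17 and -6.50 in DMSO and at 0.75, 0.74, -0.79 and -7.28 in rapamycin. Both were low in each array numbered 4 and, apart from rapamycin 3, close together in the rest. Lum, a small proteoglycan, ran the other way, at -3.26, -3.22, -3.09 and 1.87 in DMSO and -2.59, -2.69, -4.11 and 2.27 in rapamycin. Ddx3y, on the Y chromosome, lay at -4.18, -4.37, -4.24 and -8.36 in DMSO and at -4.36, -4.37, -4.50 and -8.46 in rapamycin.

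The fourth PP242 culture shared part of this profile, with Ctla2a at 6.25, 6.51, 6.47 and -1.77 and Lum at -1.62, -1.76, -1.59 and 1.45 in PP242 1 to 4; its array also had raised dim probes (percentile ratio 13.6). The 3 arrays numbered 4 lay on 3 different slides. Across 18592 genes, 705 were at least 2-fold lower and 487 at least 2-fold higher in both DMSO 4 and rapamycin 4 than in the other intact arrays of their group. In PP242 4 the sign was the same for 426 of 691 of the lower genes with a value there and for 478 of 481 of the higher ones. The deviations of DMSO 4 and rapamycin 4 from their group means correlated with r = 0.71 over genes, which are not independent replicates. Against the mean of the other intact arrays of their group, lysosomal genes had a median of -0.88 in DMSO 4 and -0.95 in rapamycin 4. For the TGF-beta, SRF and YAP targets these medians were -0.57 and -0.97. What set these cultures apart was not tested.

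**Figure D1:**
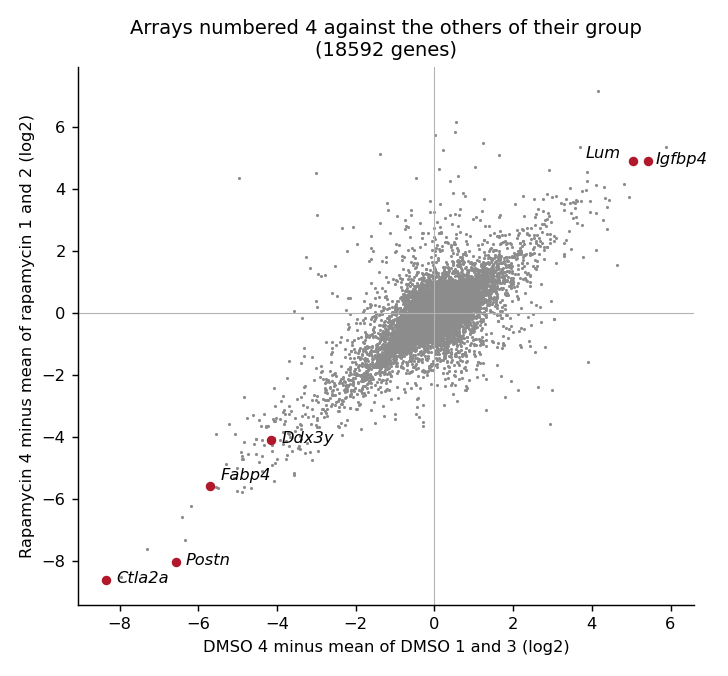
Each point is 1 of 18592 genes. The horizontal axis gives DMSO 4 minus the mean of DMSO 1 and 3 and the vertical axis rapamycin 4 minus the mean of rapamycin 1 and 2, both in log2; Ctla2a, Postn, Fabp4 and Ddx3y lie far below 0 on both axes and Lum and Igfbp4 far above it.

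With all arrays no gene passed. The limma fit of 4 against 4 tested 25581 genes and called 0 of them (0%) at a Benjamini-Hochberg adjusted p under 0.05, with 452 genes at an unadjusted p under 0.05 and a smallest adjusted p of 0.832. Array quality weights, which gave rapamycin 3 a weight of 0.0148, called 3746 genes on the same arrays. Without the 2 arrays of raised dim probes, 3 against 3, 36 of 18592 genes passed (0.194%), 24 higher (0.129%) and 12 lower (0.0645%). Of the 36, 29 were well above background on every DMSO and rapamycin array of the fit. The others include a gene above background on every rapamycin array and on no DMSO array, whose p-value supports no call. The count of 36 became 26 without DMSO 4 and 102 without rapamycin 4. It was 0 without DMSO 1, without DMSO 3, without rapamycin 1 and without rapamycin 2.

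Groups did not overlap for 8.3% of genes higher and 10.7% lower with rapamycin, the background for each statement below that the 3 values of a gene did not overlap; for 4 against 4 these shares were 2.37% and 4.55%.

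A covariate for the cultures numbered 4 raised the count on the same arrays to 2013 (10.8%), with 1141 higher (6.14%) and 872 lower (4.69%). All 36 genes of the fit without the covariate were among them. Of the 2013, 1866 were well above background on every DMSO and rapamycin array of the fit. The others include genes above background on every array of one treatment and none of the other, whose p-values support no call. Both groups held equal shares of cultures numbered 4, so the covariate could not move the estimate or sign of a gene with all values. That 18346 of 18592 estimates differed by less than 0.01 between the fits follows from this design and is no check of the estimates. The median standard error went from 0.162 to 0.0918. Most changes were small, with a median size of 0.45 among the called genes, and 143 genes changed at least 2-fold.

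Of the 2013 genes, 1977 had the called sign also in rapamycin 4 minus DMSO 4 alone, a single pair that contributed to the estimate. Within slides, 1921 kept the sign on the first (rapamycin 1 against DMSO 1 and 4) and 1538 on the third (rapamycin 4 against DMSO 3), so slide and culture number cannot be told apart in these differences. Leaving out single arrays changed the count, which was 253 without DMSO 1, 147 without DMSO 3, 35 without rapamycin 1, 31 without rapamycin 2, and 2295 without the cultures numbered 4. These 2295 are in part other genes, since they hold 1429 of the 2013 with the same sign. A fit with slide as a block beside the covariate and a fit with every replicate number as a block each called 0 genes, with 4892 and 3557 at an unadjusted p under 0.05. Centring each array on its median gave 195 higher and 363 lower, with the median of all genes at -0.12.

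**Figure D2:**
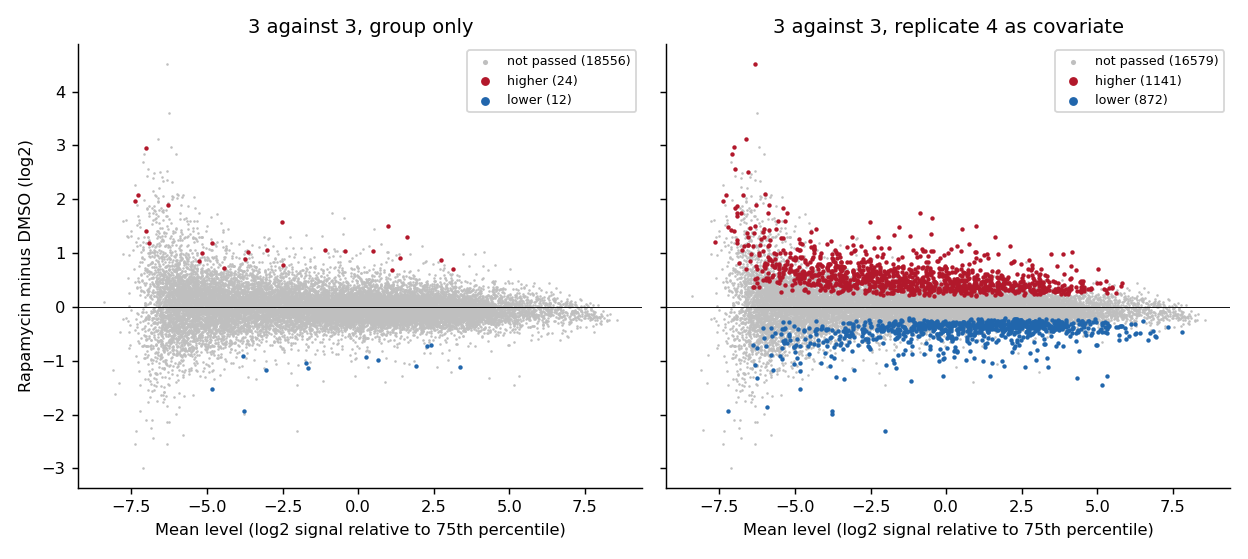
Difference between rapamycin and DMSO (log2) against mean level (log2 relative to the 75th percentile) for 18592 genes on 3 against 3 arrays, without (left) and with (right) a covariate for the cultures numbered 4. Red and blue points are genes called higher and lower: 24 and 12 on the left, 1141 and 872 on the right.

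In what follows, rose and fell describe genes that passed in the fit with the covariate, whose values and adjusted p are given, and a gene that also passed without it is said to have done so. Lists are read against a median of -0.02 over all genes tested and against the 4.69% of all genes that fell and 6.14% that rose; a count near those shares is not a result about a list. Members fell and none rose in the lists of serine and one-carbon enzymes (7 of 12), hypoxia (10 of 19), glycolysis (9 of 19), ATF4 targets (14 of 31), NRF2 targets (9 of 20) and ribosome biogenesis (12 of 28). Members rose and none fell among NF-kB-linked cytokines (7 of 16) and autophagy genes (8 of 23).

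Genes of sugar metabolism were one group of falls. Of 19 measured genes of glycolysis and glucose transport, 9 fell and 0 rose, and 18 had a negative difference (median -0.44). Pfkl, the liver-type subunit of phosphofructokinase, lay at 2.43, 2.41 and 2.55 in DMSO 1, 3 and 4 and at 1.17, 1.33 and 1.58 in rapamycin 1, 2 and 4. The groups did not overlap, and the difference was -1.1 (SE 0.0742, adjusted p 0.00686; adjusted p 0.0467 without the covariate). Pfkl was at -0.13 on the raised array rapamycin 3 and at 2.38 on DMSO 2.

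Pfkp, the platelet-type subunit of the same enzyme, fell by 1.01 (SE 0.0981, adjusted p 0.0107). Slc2a1, which encodes the glucose transporter GLUT1, was at 4.64, 4.60 and 5.15 in DMSO and 3.87, 3.82 and 4.26 in rapamycin, a difference of -0.82 (SE 0.06, adjusted p 0.00722). The third value of each group, from the cultures numbered 4, lay highest, and within each kind of culture rapamycin was lower. Tpi1, triosephosphate isomerase, changed by -0.61 (adjusted p 0.0149), and Ldha, Pgk1, Pgam1, Aldoa and Slc16a1 fell as well. Gapdh was at 7.85, 7.66 and 7.66 in DMSO and 7.4, 7.54 and 7.13 in rapamycin and did not pass (adjusted p 0.0799), nor did Gpi1 (adjusted p 0.154). Among 18 enzymes that make pentoses and nucleotides 4 fell: G6pdx and Pgd, the oxidative enzymes of the pathway (-0.45 and -0.37), and Atic and Impdh1, of purine synthesis (-0.29 and -0.46).

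Of 19 measured genes that low oxygen induces, 10 fell and 0 rose (median -0.38). Bnip3, a mitochondrial protein that promotes mitophagy, was at 3.83, 3.92 and 4.04 in DMSO 1, 3 and 4 and at 2.64, 2.80 and 2.98 in rapamycin 1, 2 and 4. All rapamycin values lay below all DMSO values, and the difference of -1.12 (SE 0.0714) passed with the covariate (adjusted p 0.00603) and without it (adjusted p 0.0467). Pdk1, the kinase that restrains pyruvate entry into mitochondria, lay at 1.14, 1.1 and 1.18 in DMSO and 0.09, 0.03 and 0.35 in rapamycin and also passed both ways (-0.98, adjusted p 0.00722 and 0.0467).

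Ddit4, a stress-induced inhibitor of mTOR complex 1, lay at 4.82, 4.79 and 5.33 in DMSO and 3.42, 3.48 and 4.07 in rapamycin. The cultures numbered 4 were higher in both treatments, and the fall of -1.32 passed with the covariate (SE 0.0705, adjusted p 0.00557) but not without it (adjusted p 0.105). Egln3, an oxygen-sensing prolyl hydroxylase, fell by 0.98 (adjusted p 0.00655). Higd1a, Ero1a, Plod2, P4ha1, Egln1 and P4ha2 fell as well. Hif1a itself differed by -0.04 (SE 0.089, adjusted p 0.801), and Vegfa and Adm did not pass. Ak4, a mitochondrial adenylate kinase outside the list, was the named gene with the lowest adjusted p without the covariate: -1.07, -1.12 and -1.08 in DMSO, -2.23, -2.19 and -2.27 in rapamycin, a difference of -1.14 (SE 0.0763, adjusted p 0.0163). Gbe1, the glycogen branching enzyme, passed both ways at -0.70 (adjusted p 0.00801 and 0.0467).

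The core of the hypoxia response element is ACGTG, and the windows of 250 bases before to 50 after the start of each gene were searched for it on both strands. Of the 10 members that fell, 9 had a window in the RefSeq table (GRCm38.p6) and 8 of those held the letters, as did 12 of all 16 measured members with a window, against 21.8% of 27025 genes. The 2 windows with the largest falls are shown from 5′ to 3′ on the strand of the gene, with the matched letters in capitals. In Ddit4 (chr10:59951721-59952020, minus strand) the match begins 187 bases before the start, and in Bnip3 (chr7:138909457-138909756, minus strand) the capitals hold overlapping matches on both strands, the first of them 108 bases before the start. The letters are absent from both windows of Pdk1.
Ddit4: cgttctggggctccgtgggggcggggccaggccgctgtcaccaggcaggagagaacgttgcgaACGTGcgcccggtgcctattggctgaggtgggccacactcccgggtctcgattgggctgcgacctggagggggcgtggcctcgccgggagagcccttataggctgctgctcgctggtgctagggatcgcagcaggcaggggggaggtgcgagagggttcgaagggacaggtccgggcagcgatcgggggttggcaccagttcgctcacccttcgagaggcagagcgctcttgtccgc
Bnip3: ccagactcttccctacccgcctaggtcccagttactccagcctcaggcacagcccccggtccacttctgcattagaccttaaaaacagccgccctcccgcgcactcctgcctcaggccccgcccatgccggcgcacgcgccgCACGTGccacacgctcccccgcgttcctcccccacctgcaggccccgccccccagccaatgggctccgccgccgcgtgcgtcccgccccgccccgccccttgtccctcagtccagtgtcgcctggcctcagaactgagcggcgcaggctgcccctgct

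Amino acid supply genes made up the other large group of falls. Of 31 measured targets of ATF4, 14 fell and 0 rose (median -0.61), and of 12 enzymes of serine and one-carbon metabolism 7 fell and 0 rose (median -0.52). The lists share members, among them Psat1, Phgdh, Shmt2 and Mthfd2. Other lists overlap too, so their counts of falls are not separate. Ddit4 is in the ATF4 and hypoxia lists and Sesn2 in the ATF4 and p53 lists. G6pdx is in the NRF2 and pentose lists and Hmox1 in the NRF2 and iron lists. Along the serine pathway, Phgdh, the first enzyme, fell by 0.50 (adjusted p 0.0472). Psat1, the next, lay at 5.15, 5.24 and 5.63 in DMSO and 4.59, 4.64 and 4.68 in rapamycin (-0.70, SE 0.0888, adjusted p 0.0164). Psph, the last, lay at 3.15, 3.12 and 3.19 in DMSO and 2.33, 2.24 and 1.55 in rapamycin (-1.11, SE 0.168, adjusted p 0.0216). Values of Psph were lower in every rapamycin array than in any DMSO array, most so in rapamycin 4.

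In the mitochondrial one-carbon branch Shmt2, Mthfd2 and Mthfd1l fell (-0.63, -0.68 and -0.54). Aldh1l2, of the same branch, differed by -1.07 without passing (adjusted p 0.0787), and Mat2a, which makes S-adenosylmethionine, by 0.02 (adjusted p 0.854). None of these serine and one-carbon genes passed without the covariate. Cth, the last enzyme of cysteine synthesis, lay at -0.88, -0.90 and 0.38 in DMSO and -2.01, -1.93 and -1.57 in rapamycin (-1.37, adjusted p 0.0188). Slc7a11, the cystine transporter, differed by -2.39 and did not pass; it was above background on 3 DMSO arrays and 1 rapamycin array (SE 0.677, adjusted p 0.0825).

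Trib3, a pseudokinase that ATF4 induces, was at 1.86, 1.94 and 2.46 in DMSO and 1.07, 1.1 and 0.22 in rapamycin (-1.29, SE 0.289, adjusted p 0.0486); it was lowest in rapamycin 4. Asns, asparagine synthetase, and Slc7a5, a large neutral amino acid transporter, fell (-0.61 and -0.75). The stress factors Atf3 and Ddit3 fell (-0.85 and -0.68). Atf4 itself differed by -0.27 (adjusted p 0.113), and Slc38a2, another transporter, whose probes disagreed in sign, by 0.0065. Of 20 cytosolic tRNA synthetases, 19 had a negative difference (median -0.29), and Vars, Yars and Tars fell (-0.37, -0.36 and -0.25). The median of the ATF4 list was -0.94 in rapamycin 4 minus DMSO 4 and -0.36 in the other intact arrays, and leaving out rapamycin 4 moved it to -0.43.

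TGATGNAA, a common core of the composite element that C/EBP and ATF4 bind, was searched in the same windows on both strands, where N is any base. It was found in 3 of 12 members that fell and had a window and in 9 of all 27 measured members with one, against 4.51% of 27025 genes. The 3 are shown with the match in capitals; it lies on the opposite strand in Trib3 and Atf3. It begins 14 bases after the start in Trib3 (chr2:152344011-152344310, minus strand), 110 before it in Atf3 (chr1:191183284-191183583, minus strand) and 23 before it in Asns (chr6:7693160-7693459, minus strand).
Trib3: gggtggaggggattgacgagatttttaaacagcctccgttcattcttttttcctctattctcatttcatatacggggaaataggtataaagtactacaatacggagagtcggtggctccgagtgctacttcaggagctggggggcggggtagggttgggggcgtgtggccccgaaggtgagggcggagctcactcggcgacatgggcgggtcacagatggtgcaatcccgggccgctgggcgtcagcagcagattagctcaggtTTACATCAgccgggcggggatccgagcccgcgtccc
Atf3: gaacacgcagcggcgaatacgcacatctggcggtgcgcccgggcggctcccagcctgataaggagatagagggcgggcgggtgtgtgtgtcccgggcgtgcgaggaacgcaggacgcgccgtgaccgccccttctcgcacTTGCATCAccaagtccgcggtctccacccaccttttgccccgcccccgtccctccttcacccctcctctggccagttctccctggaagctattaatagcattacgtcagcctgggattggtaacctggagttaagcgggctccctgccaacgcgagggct
Asns: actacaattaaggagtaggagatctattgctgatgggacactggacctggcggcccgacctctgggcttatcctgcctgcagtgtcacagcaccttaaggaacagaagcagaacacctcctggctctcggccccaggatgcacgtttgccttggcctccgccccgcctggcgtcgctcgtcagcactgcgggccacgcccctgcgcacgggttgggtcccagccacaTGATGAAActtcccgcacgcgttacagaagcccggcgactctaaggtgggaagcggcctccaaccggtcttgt

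All 28 measured genes of ribosome biogenesis had a negative difference (median -0.30), and 12 of them fell. Mybbp1a, a nucleolar regulator of rRNA transcription, lay at 2.88, 2.85 and 3.19 in DMSO and 2.33, 2.25 and 2.79 in rapamycin, a difference of -0.51 (SE 0.0622, adjusted p 0.0151). Nop2, an rRNA methyltransferase, changed by -0.47 (adjusted p 0.0258), and Nhp2, Tsr1, Rrn3, Polr1a, Heatr1, Rrp9, Wdr12, Rrs1, Gnl3 and Bysl fell as well. Npm1 and Ncl, the abundant nucleolar proteins, differed by -0.14 and -0.26 without passing. Among 29 genes of cytosolic ribosomal proteins 0 rose and 0 fell (median -0.08), and that median was 0.06 under quantile normalisation.

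Of 28 translation factors, 5 fell and 1 rose (median -0.20). Eif4e, the cap-binding protein, fell by 0.30 (adjusted p 0.0328), and Eif3b, Eif3c, Eif5a and Eif2b1 by 0.29 to 0.36 in size. Eif4b, a helicase cofactor and a substrate downstream of mTOR complex 1, rose, from 4.62, 4.56 and 4.73 in DMSO to 4.87, 4.97 and 5.08 in rapamycin (0.34, adjusted p 0.0286). In mitochondria, 3 of 19 genes of the organelle's ribosome and transcription fell (Mrpl20, Mrps7 and Mrpl12) and 4 of 31 of respiration (Cyc1, Cycs, Ndufa9 and the nuclear receptor Esrra, at -0.61); no member of either list rose. Of 10 polyamine genes Srm, spermidine synthase, fell by 0.40 (adjusted p 0.0226) and Smox, spermine oxidase, rose by 0.27, while Odc1 did not pass (-0.20).

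All 20 measured NRF2 targets had a negative difference and 9 fell (median -0.39). Gclc, the catalytic subunit of the glutathione-synthesising ligase, lay at 2.50, 2.53 and 2.30 in DMSO and 1.86, 1.91 and 1.69 in rapamycin, without overlap (-0.62, SE 0.0501, adjusted p 0.00801). Its partner Gclm, Gsr, Srxn1, Abcc4, G6pdx, Gsta4, Osgin1 and Hmox1 were the others that fell. Hmox1, heme oxygenase, changed by -0.53 (adjusted p 0.0188). Tfrc, the transferrin receptor, fell 2-fold, from 2.69, 2.83 and 1.49 in DMSO to 1.68, 1.74 and 0.58 in rapamycin, with both cultures numbered 4 lower than the rest (-1.0, SE 0.0668, adjusted p 0.00686). With Hmox1 and the iron exporter Slc40a1 (-0.45) it made up the 3 falls among 10 genes of iron handling. The ferritin genes Fth1 and Ftl1 did not pass (-0.36 and -0.18).

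**Figure D3:**
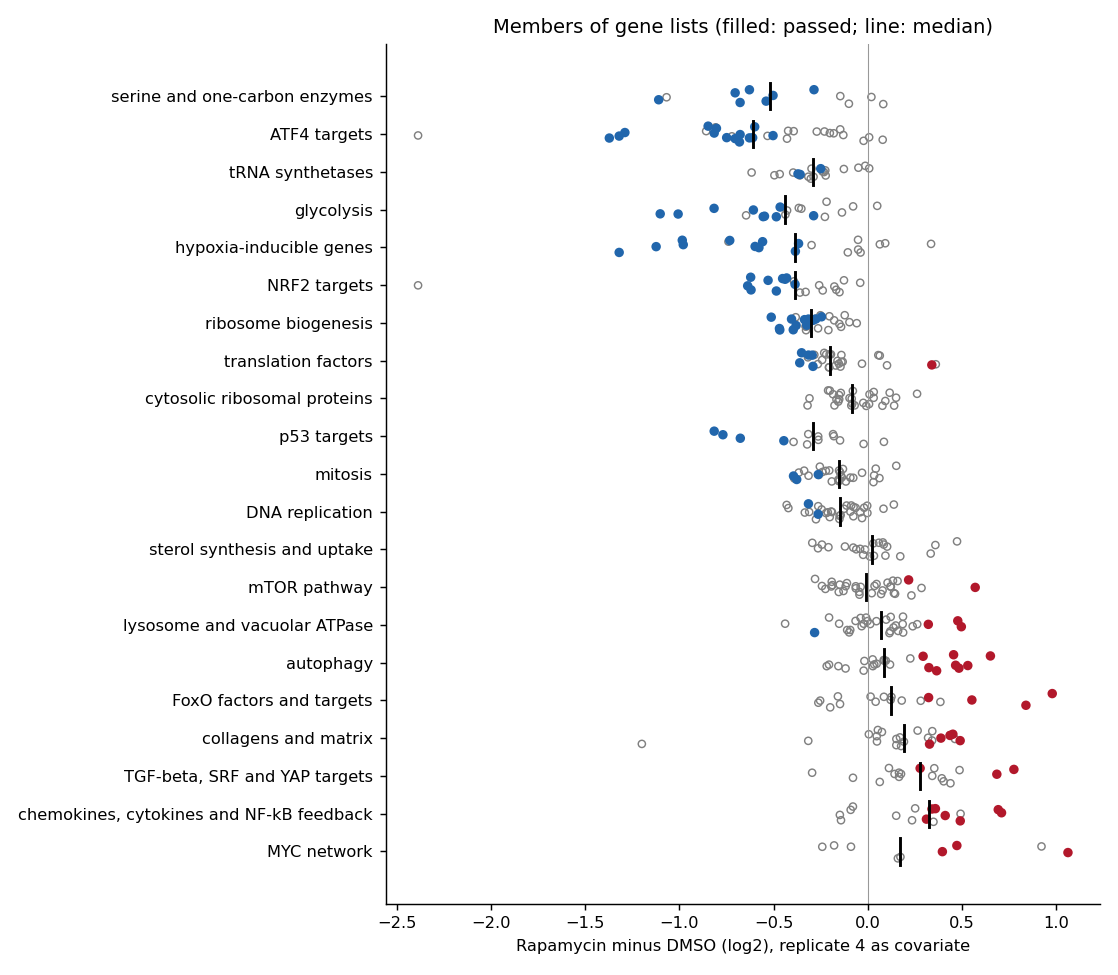
Each point is a measured member of a gene list, placed by its difference between rapamycin and DMSO (log2) in the 3 against 3 fit with the covariate; filled points passed (red rose, blue fell) and the black line is the list's median. The medians of the lists from serine enzymes to DNA replication lie below 0 and those from lysosome to MYC network above it.

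Of 30 mitotic genes 3 fell, Ccnb1, Bub1b and Ccna2 (-0.38, -0.39 and -0.26), and of 31 replication genes 2 fell, Mcm2 and Tk1 (-0.32 and -0.26), beside 4.69% of all genes; the replication count is near that background. The list medians were both -0.15. That of the mitotic list was 0.07 in the pair numbered 4 and -0.29 in the other arrays. Ccnd2, a G1 cyclin, fell by 0.43 (adjusted p 0.0193), and Cdk4 differed by 0.06 (adjusted p 0.512). Rb1, the retinoblastoma protein, rose by 0.53 (adjusted p 0.0227), and of 12 G1 cyclins and inhibitors these and Cdkn1a passed.

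Cdkn1a, which encodes the inhibitor p21, lay at 3.02, 2.78 and 2.09 in DMSO and 1.86, 1.98 and 1.75 in rapamycin and fell (-0.77, SE 0.154, adjusted p 0.0379). It was one of 4 p53 targets that fell of 14, beside Ccng1, Sesn2 and Tigar; none rose (median -0.29). The list's median was -0.09 within the pair numbered 4 and -0.42 within the others. Of 25 growth factor and ERK-induced genes only Ereg, an EGF receptor ligand, passed (-0.39, adjusted p 0.0481). In the MYC network Myc rose, from 2.88, 2.85 and 3.14 in DMSO to 3.44, 3.45 and 3.39 in rapamycin (0.47, SE 0.0872, adjusted p 0.0314), as did the antagonists Mnt (0.40) and Mxd4.

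None of 22 genes of sterol synthesis and uptake passed (median 0.02, -0.20 in the pair numbered 4 and 0.11 in the others), and in the fatty acid list 1 of 16 did, the elongase Elovl6, which fell by 0.45 (adjusted p 0.0145). Fasn, fatty acid synthase, lay at 5.93, 6.14 and 5.63 in DMSO and 5.85, 5.92 and 5.50 in rapamycin and did not pass (-0.14, adjusted p 0.241). In both treatments the cultures numbered 4 were the lowest for this gene.

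The largest rises that were well above background on all 6 intact arrays and had no overlap belonged to genes of varied function. Slc16a11, a monocarboxylate transporter, lay at -1.56, -1.72 and -0.55 in DMSO and 0.03, 0.17 and 0.91 in rapamycin; both cultures numbered 4 were the highest of their group, and it passed with the covariate (1.65, SE 0.0877, adjusted p 0.00557) but not without it (adjusted p 0.153). Ypel1, a small zinc-binding protein, passed both ways, from -3.56, -3.33 and -3.02 in DMSO to -1.65, -1.59 and -1.95 in rapamycin (1.57, SE 0.167, adjusted p 0.0122 and 0.0467). Anxa8, an annexin, rose 2.83-fold, from 0.32, 0.03 and 0.35 in DMSO to 1.79, 1.83 and 1.58 in rapamycin, and also passed both ways (adjusted p 0.00801 and 0.0302).

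Mustn1, Tcp11l2, Izumo4 and Crispld2 rose by 1.44, 1.33, 1.30 and 1.22, none of them passing without the covariate. Isoc2b, S100g, Letm2 and Inca1 rose by 1.20, 1.09, 1.07 and 1.05, of which Isoc2b passed both ways. Mxd4, a MYC antagonist, lay at -1.79, -1.70 and -1.39 in DMSO and -0.59, -0.50 and -0.60 in rapamycin and passed both ways (1.06, adjusted p 0.00994 and 0.0467). Fbxl20, an F-box protein, and Calcoco1, a reticulophagy receptor, did so too (1.05 and 0.78).

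Bckdha, the branched-chain ketoacid dehydrogenase subunit, was at 2.25, 2.29 and 2.39 in DMSO and 3.17, 3.24 and 3.11 in rapamycin (0.87, SE 0.0685, adjusted p 0.00801 and 0.0466). Aldh6a1, of valine breakdown, was at -0.11, 0.01 and 0.04 in DMSO and 1.19, 1.04 and 0.85 in rapamycin (1.05, adjusted p 0.00968 and 0.0467). Bphl rose by 0.91 and Lrrc61, Tmem63c and Grin3b by 0.90, 0.85 and 0.72. On the raised array rapamycin 3 some of these lay below all DMSO values: Anxa8 at -0.11, Bckdha at 1.06 and Aldh6a1 at -1.23. No list of amino acid breakdown was set up, and Bckdha and Aldh6a1 were grouped after their values were seen.

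**Figure D4:**
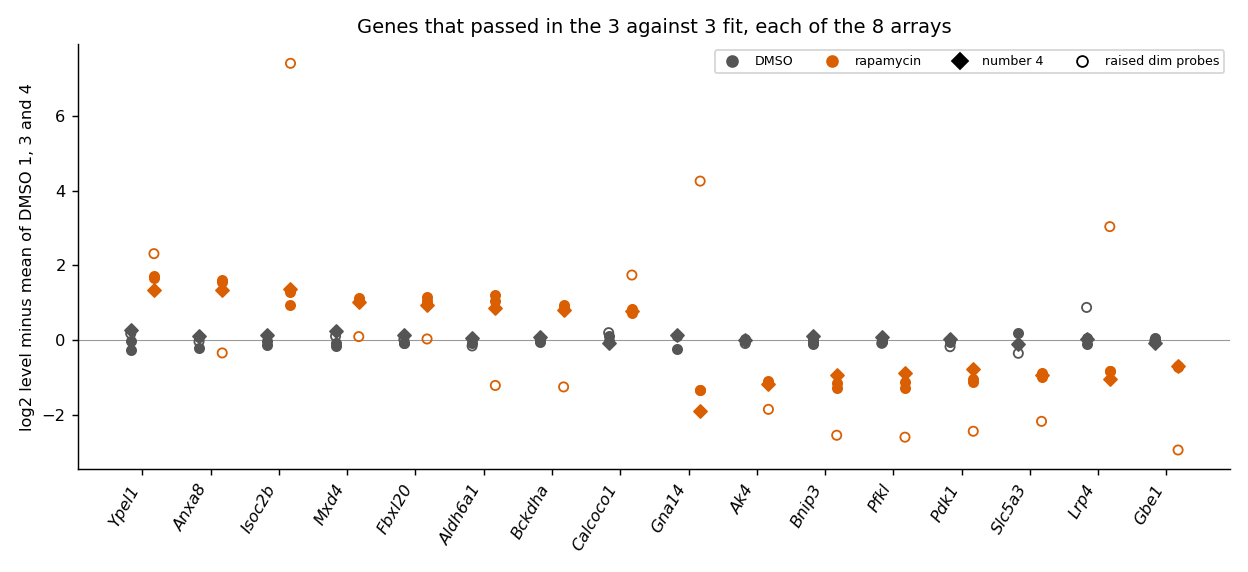
Level of 16 genes on each of the 8 arrays, as log2 minus the mean of DMSO 1, 3 and 4. Grey is DMSO and orange rapamycin; diamonds are the cultures numbered 4 and open circles the 2 arrays of raised dim probes. Filled orange points lie above 0 for the 8 genes on the left and below 0 for the 8 on the right, while rapamycin 3 lies above the others in Isoc2b, Gna14 and Lrp4 and below DMSO in Aldh6a1 and Bckdha.

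Of 23 autophagy genes 8 rose and 0 fell, with a list median of 0.09 that became -0.01 with arrays centred on their medians. Map1lc3a, an LC3 protein of the autophagosome membrane, lay at 1.26, 1.13 and 1.67 in DMSO and 1.85, 1.92 and 2.24 in rapamycin (0.65, SE 0.0681, adjusted p 0.0117). Atg13 and Rb1cc1, of the ULK kinase complex, Wipi1, and the cargo receptor Nbr1 rose by 0.53, 0.47, 0.48 and 0.45, and Map1lc3b, Ulk2 and Gabarap by 0.36, 0.32 and 0.29. Sqstm1, the receptor p62, did not pass (-0.21, adjusted p 0.105).

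Of 30 lysosomal genes 3 rose, Sgsh, Mitf and Mcoln1 (by 0.50, 0.48 and 0.32), and 1 fell, the transcription factor Tfe3 (-0.28). The cathepsins Ctsl and Ctsb differed by -0.10 and -0.01 without passing. The lysosomal list, low in the cultures numbered 4, had a median of -0.07 within them and 0.16 within the others. Among FoxO factors and targets 4 of 17 rose and 0 fell. Txnip, which restrains glucose uptake, lay at 1.41, 1.48 and 0.75 in DMSO and 2.27, 2.15 and 2.15 in rapamycin (0.98, SE 0.142, adjusted p 0.0206). Fbxo32, a ubiquitin ligase of muscle atrophy, Ccng2 and Cited2 rose by 0.84, 0.55 and 0.32.

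Cytokine genes linked to NF-kB rose, 7 of 16 with 0 falling (median 0.33). Ccl2, the monocyte chemokine, was at 4.47, 4.51 and 5.06 in DMSO and 5.30, 5.30 and 5.57 in rapamycin, without overlap (0.71, SE 0.0764, adjusted p 0.0125). Il6 was dim, at -3.69, -3.66 and -2.25 in DMSO and -2.95, -2.99 and -1.59 in rapamycin, and higher with rapamycin within each kind of culture (0.69, SE 0.0477, adjusted p 0.00708). Nfkbia, the inhibitor that NF-kB induces against itself, rose by 0.49 (adjusted p 0.0146), and Relb, Ccl7, Csf1 and Ptgs2 by 0.41, 0.36, 0.34 and 0.31. Cxcl1 and Cxcl10 did not pass (-0.08 and -0.15). The list's median was 0.29 in the pair numbered 4 and 0.31 in the other arrays.

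Oasl1, Ifit1, Isg15 and Ifit2, antiviral effectors, fell (-1.18, -0.87, -0.37 and -0.27), and Gbp2, a guanylate-binding protein, rose by 0.50, of 17 interferon-response genes measured. Apart from Ifit2, which was lower there, these genes were higher in the cultures numbered 4 of both treatments. Ifit1 lay at -1.19, -1.31 and 0.43 in DMSO and -2.13, -2.23 and -0.33 in rapamycin. Irf1 did not pass (0.05).

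Of 23 collagens and matrix genes 5 rose and 0 fell (median 0.19, but -0.01 in the pair numbered 4). Bgn, a proteoglycan, rose by 0.39 and Loxl1, a collagen crosslinking enzyme, by 0.33, with Lum, Dcn and Fbln1. Col1a2, the abundant collagen chain, did not pass (0.07). Of 17 targets of TGF-beta, SRF and YAP 3 rose (median 0.28): Amotl2, a YAP feedback gene, from 2.78, 2.79 and 1.74 in DMSO to 3.60, 3.54 and 2.49 in rapamycin (0.77, adjusted p 0.00722), Ccn1 by 0.68 (adjusted p 0.00901) and Ankrd1 by 0.28. All 3 were lower in the cultures numbered 4, and the list's median moved to 0.06 without DMSO 4 and to 0.72 without rapamycin 4. Of 15 matrix proteases and their inhibitors Adamts5 rose (0.60) and Mmp3 fell (-0.42).

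Of 32 measured genes of the mTOR pathway itself 0 fell, and Irs1, an insulin receptor substrate whose probes disagreed in sign, rose by 0.22 (adjusted p 0.0468). Mtor lay at -0.77, -0.60 and -0.60 in DMSO and -0.57, -0.58 and -0.71 in rapamycin (0.03, SE 0.0773, adjusted p 0.795). Its partners Rptor, Mlst8, Akt1s1 and Deptor differed by -0.15, -0.19, -0.12 and 0.16, and Rictor, of complex 2, by 0.28 with probes of both signs; the lowest adjusted p among them was 0.0607. The upstream genes Tsc1, Tsc2 and Rheb differed by -0.06, 0.14 and 0.23, and the substrates Eif4ebp1, Rps6kb1 and Grb10 by -0.06, -0.23 and -0.13. The receptors Insr and Igf1r differed by 0.10 and 0.14. Fkbp1a, which encodes FKBP12, was at 2.96, 3.02 and 2.90 in DMSO and 2.91, 2.91 and 2.92 in rapamycin (-0.05, adjusted p 0.575); of 12 FK506-binding protein genes only Fkbp4 passed, falling by 0.38 (adjusted p 0.0216).

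Other large falls lay outside the lists. Car6, a secreted carbonic anhydrase, lay at -1.49, -1.44 and 0.26 in DMSO and -3.23, -3.04 and -3.29 in rapamycin (-2.30, SE 0.382, adjusted p 0.0255). The culture DMSO 4 held the highest value of Car6, while the rapamycin values lay close together. Ranbp3l was at -2.18, -1.81 and -4.36 in DMSO and -4.44, -4.58 and -5.27 in rapamycin (-1.98, adjusted p 0.0268); DMSO 4 lay within 0.1 of rapamycin 1. Gna14, a G protein subunit, passed both ways (-1.53, adjusted p 0.014 and 0.0496), as did Slc5a3, the inositol transporter (-0.93), and Lrp4, a lipoprotein receptor relative (-0.91). Accsl fell by 1.34.

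Of other lists, 1 of 17 endoplasmic reticulum chaperones rose (Dnajb9, 0.46), as did 3 of 14 fibroblast markers (Lum, Dcn and Pdgfra, by 0.49, 0.45 and 0.36), the adipocyte marker Fabp4 (0.50) and the muscle marker Des (0.54, above background on 3 of 6 arrays). Fabp4 was at 2.24, 2.20 and -3.48 in DMSO and 2.66, 2.69 and -2.88 in rapamycin, low in both cultures numbered 4, and none of the 6 epithelial, leukocyte and neural markers measured passed. Clock genes showed 2 falls of 17, Hlf (-0.37) and Tef (-0.36, with probes of both signs). Among genes seen above background in every array of one group and none of the other, 1700017N19Rik was at least 4.72-fold and Nrip2 at least 2.37-fold higher with rapamycin, with group means of -8.57 and -4.06 for the first and -6.77 and -5.02 for the second. Their adjusted p were 0.139 and 0.144 without the covariate and 0.0286 and 0.0194 with it. Khdc3 and Olfr62 were at least 1.73-fold and 1.54-fold lower, with adjusted p of 0.243 and 0.182 without it. No DMSO array helped the first pair past the filter on dim probes and no rapamycin array the second, so these p-values support no call.

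**Figure D5:**
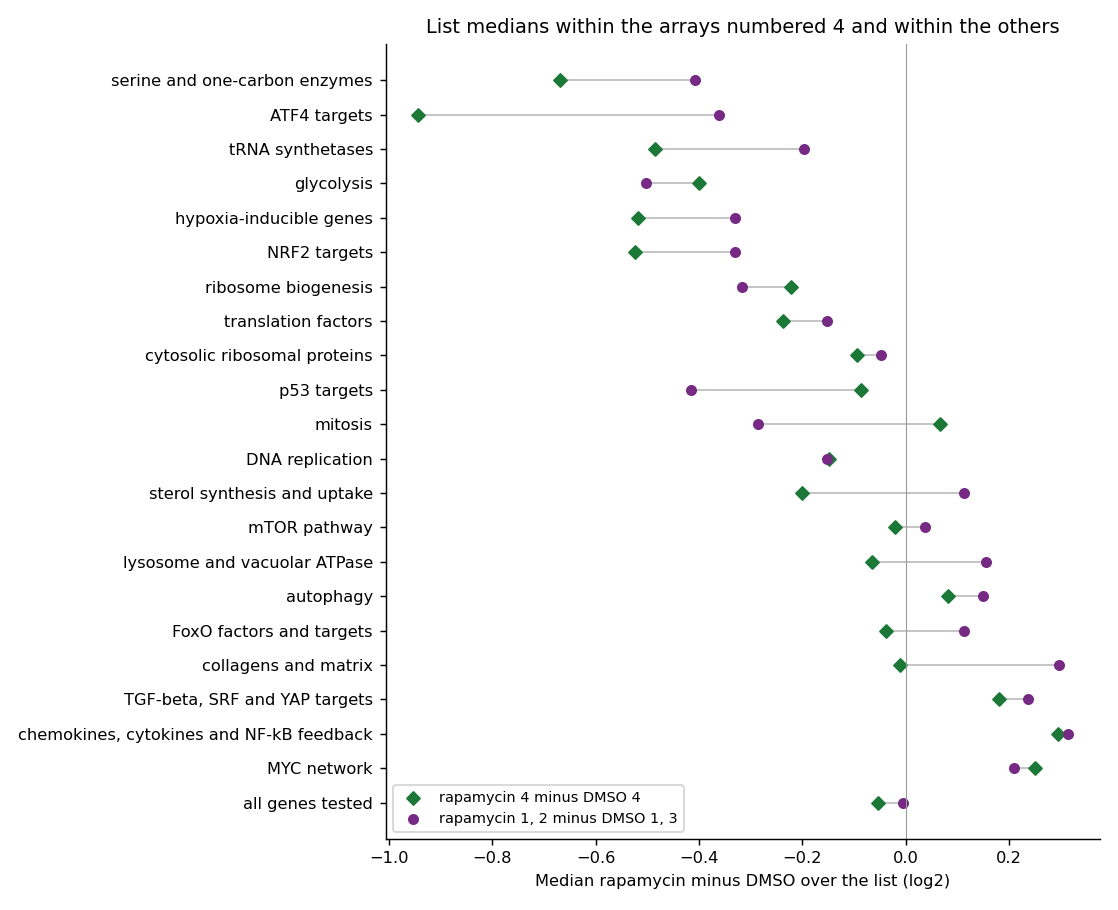
Median difference between rapamycin and DMSO (log2) over the members of each list, in rapamycin 4 minus DMSO 4 (green diamonds, 1 array each) and in rapamycin 1 and 2 minus DMSO 1 and 3 (purple circles). Both lie left of 0 from serine enzymes to p53 targets and in DNA replication, and the mitotic, sterol, mTOR, lysosomal, FoxO and matrix lists have markers on both sides of 0.

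The PP242 arrays allow the inhibitors to be set side by side, at different doses and against the same DMSO arrays. List medians for rapamycin and PP242 were -0.52 and -1.32 for serine and one-carbon enzymes, -0.44 and -0.85 for glycolysis, -0.15 and -1.79 for mitosis and -0.15 and -1.25 for replication. PP242 and rapamycin arrays were also compared directly in the same fit, where 34.6% of genes passed. Several stress and signalling genes stood on opposite sides of DMSO. Atf3 was -0.85 with rapamycin and 2.17 with PP242 (direct difference 3.02, adjusted p 0.000392), and Ddit3 -0.68 and 0.98 (adjusted p 0.000434). Il6 was 0.69 with rapamycin and -0.88 with PP242 (adjusted p 0.000392), and Ccn1 0.68 and -0.47 (adjusted p 0.000504).

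Anxa8 was higher with rapamycin than with PP242 (1.5 and 0.65, adjusted p 0.00697 for the difference). For Bnip3 the values were -1.12 and -1.14 (direct difference -0.02, adjusted p 0.888), and for Slc16a11 1.65 and 1.75 (adjusted p 0.522). Ccna2 was -0.26 with rapamycin and -1.86 with PP242 (adjusted p 0.000392), and Tfrc -1.0 and -3.50 (adjusted p 0.000392). These values rest on 2 PP242 arrays, since the other 2 had raised dim probes. Neither is numbered 4, so PP242 values depend on the covariate in a way that rapamycin values do not. With PP242 the median of the TGF-beta, SRF and YAP targets, which include Ccn1, was 0.30 without the covariate and -0.16 with it. That of the mitotic list was -1.83 without it and -1.79 with it.

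In the 4 against 4 fit, where nothing passed, Ypel1 and Slc16a11 had the lowest unadjusted p among genes with a symbol and Trib3 the lowest of those with a negative difference. Trib3 lay at 1.86, 2.07, 1.94 and 2.46 in DMSO 1 to 4 and at 1.07, 1.1, -0.34 and 0.22 in rapamycin 1 to 4, a difference of -1.57 (SE 0.333). Ak4, Bnip3, Pfkl, Pdk1 and Ddit4 differed by -1.30, -1.46, -1.45, -1.30 and -1.90, and Ypel1, Slc16a11, Izumo4 and Calcoco1 by 1.71, 1.65, 1.39 and 0.97, each at an adjusted p of 0.832. The median over all genes was 0.18 in that fit, and that of the cytosolic ribosomal proteins was -0.69, or -0.10 without rapamycin 3. Ak4 stood at -1.07, -1.18, -1.12 and -1.08 in DMSO and -2.23, -2.19, -2.94 and -2.27 in rapamycin, so the raised array lay furthest from DMSO.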

How the data were processed

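RNA of NIH3T3 cells was hybridised to 12 one-colour Agilent 4x44K arrays, 4 each for DMSO, rapamycin and PP242, as 45018 spots, of which 1639 were controls, for 41174 probes. The deposited scanner files hold the processed signal, a background-corrected intensity from Feature Extraction 10.5.1.1 per the file headers (10.1 in the submitters' processing notes). The deposited log2 table, with column medians of 8.54 to 8.56, follows the median signal by rank and served as an alternative, and no source used here states its normalisation.

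Each array's log2 processed signal was set relative to its 75th percentile over non-control probes. Spots marked as outliers (1.52%) were left out, and no spot was saturated. Kept were probes that exceeded background on 4 or more of 12 arrays, or on 3 or more of the 8 with a percentile ratio of at least 100, and the brightest probe stood for a gene. A symbol came from RefSeq accessions for 24844 probes; the other 16330 keep the file's identifier. limma 3.58.1 in R 4.3.3 (lmFit and eBayes, all 3 treatments sharing the spread, two-sided, Benjamini-Hochberg over all genes, 0.05) gave the tests. On simulated arrays the 4 against 4 fit called 0% of changes of 1 in log2 and 13.6% of changes of 2. For 3 against 3 it was 50.7% and 80.3%, and with the covariate 70.1% and 92.4%. Of changes of 0.5, these 3 fits called 0%, 2.99% and 31.3%. The simulated noise was independent between arrays and, for a given gene, equally wide on each of them. Slide effects and arrays of unequal quality were therefore not part of it. Only 66 or 67 genes were changed at each size, and the share called depends on how many genes change. The covariate is an indicator of cultures numbered 4. A lower bound on a fold uses the dimmest signal that counted as above background. Fits lacking a value (270 of 18592 genes, 3097 of 25581) used the remaining arrays.

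Named genes are the 12 largest rises and falls that passed, were above background on all arrays and did not overlap (filled by the lowest unadjusted p), up to 4 passing and 2 other members of each list, the 3 largest bounds and 15 mTOR genes. The rule was applied to the fit with the covariate too, and some further passing list members are named. Members, lists and rule were chosen with earlier results of these data known. The p-values measure the spread between these samples, and the number of arrays limits precision. Intensities are not compared between probes. Results for some genes are not reported here.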

Additional observations from a re-analysis of the deposited data

Results flagged for a closer look

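Array measures and 13 genes were checked within the 4 DMSO and within the 4 rapamycin arrays, as 32 sets of 4 values. In 12 of these sets 1 array lay apart by Dixon's ratio of gap to range, at a level that chance passes in about 1 of 20 sets. Rapamycin 3 was that array in 4 of them, an array numbered 4 in 7 and DMSO 2 in 1. Several of the measures were chosen because an array was known to stand apart in them, so the count is a description and not a test against that rate. By brightness, DMSO 2 had 78.0% of probes well above background against 55.8% to 59.5% in the other DMSO arrays. Rapamycin 3 had 97.9% against 59.8% to 60.3%, a percentile ratio of 7.1 against 296.5 to 346.6, and a 75th percentile of 7661 against 1211 to 1655.

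By gene, DMSO 4 stood apart for Postn (-6.50 against -0.03 to 0.17), Ctla2a (-4.03 against 4.27 to 4.60) and Lum (1.87 against -3.26 to -3.09). The Y-linked genes Ddx3y and Eif2s3y stood apart in both cultures numbered 4: Ddx3y at -8.36 in DMSO 4 and -8.46 in rapamycin 4, and Eif2s3y at -8.23 and -8.41. Ak4 was at -2.94 on rapamycin 3 against -2.27 to -2.19 on the other rapamycin arrays.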

How the results depend on the processing

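With all 4 arrays a group the count of calls was 0 under every alternative run but array quality weights, which gave 3746 and turned Cited2, Mnt and Myc, negative without them, to 0.30, 0.35 and 0.56. For 3 against 3 (36 calls) it was 20 with quantile normalisation, 3 with arrays centred on their median, 3 with the median signal, 12 with normexp on the median signal (the mean signal is not in the files), 10 with the deposited table, 0 without the filter on dim probes (2657 at an unadjusted p under 0.05), 67 with probes above background on every array, 0 with only the rapamycin and DMSO arrays (2017), 0 with slide as a block (1480), 64 with an intensity trend, 3155 with array weights and 2013 with the covariate. Leaving out 1 replicate gave 0 to 102.

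With the covariate (2013 calls) the alternatives, chosen after seeing the data, gave 558 with median centring, 441 with the median signal, 603 with normexp, 910 with the deposited table, 134 without the filter, 434 with only the 2 groups, 0 with slide as a block, 4311 with array weights and 36 without the covariate. Leaving out 1 replicate gave 31 to 2295, and the call for Des changed sign to -0.0023 with the median signal. Of the 2013 calls, 6 had the other sign with the median signal, 11 with normexp, 3 with the deposited table and 8 with the mean of a gene's probes. Quantile normalisation, the stricter filter, the mean of a gene's probes and the intensity trend stayed within 1.5 times. The cause of these changes was not tested.

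The replicate numbers were not taken to pair the samples, and whether they do was not tested. Deviations of same-numbered DMSO and rapamycin arrays correlated with 0.53, -0.70, -0.36 and 0.51. The negative ones hold DMSO 2 and rapamycin 3, whose dim probes were raised, so they cannot decide about a pairing. Among intact arrays the 2 same-numbered pairs gave 0.57 and 0.71. Differently numbered pairs without number 4 gave 0.25, 0.32 and 0.47, and pairs crossing number 4 gave -0.59 to -0.48. With the replicate block 0 genes passed for 4 against 4 and 0 for 3 against 3 (3557 at an unadjusted p under 0.05), with or without the covariate, which the block contains.

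Of the lists, glycolysis, hypoxia, serine, ATF4, tRNA synthetase, NRF2, ribosome biogenesis, translation factor and p53 medians stayed negative under each 3 against 3 alternative. They were not alone in this. Medians of mitosis, DNA replication, mitochondrial ribosome, respiration, pentose and nucleotide, iron and leukocyte marker lists stayed negative as well. So did the clock, polyamine and endoplasmic reticulum chaperone medians, the last by as little as -0.0094. The part of the 2 arrays of raised dim probes is measured here by leaving them out and by weighting, and genes near background are given as bounds or with the number of arrays above background.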
